A study of Mus musculus with 96 samples.

Results

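Inguinal white adipose tissue (iWAT) of wild-type mice was compared between 20 °C and 30 °C. The libraries were chosen by their labels alone: tissue iWAT, wild-type genotype, control diet, 8 libraries at 20 °C (replicates 49 to 56, numbered by their titles) and 8 at 30 °C (replicates 65 to 72), so 16 of the 96 libraries of the study. All mice were male and of the C57BL/6J strain; the labels give no age. Wild-type or Ucp1-KO mice lived for 4 weeks at 30 °C on control diet (13% of energy from fat) or on a high fat diet (48%), or at 20 °C on control diet, and each of the 6 groups held 8 animals. Interscapular brown fat (iBAT) was taken from the same 6 groups. The wild-type iWAT comparison asks what mild cold changes in a fat depot that can turn from storing lipid to making heat, and Ucp1-KO iWAT and wild-type iBAT serve below as comparators over the same 2 temperatures.

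Inguinal fat is a white depot in which brown-like (beige) adipocytes can appear in the cold. Noradrenaline from sympathetic nerves acts on adrenergic receptors of the adipocyte, raises lipolysis and switches on Ucp1, whose protein lets protons leak back across the inner mitochondrial membrane and turns respiration into heat. Cold is also known to raise the synthesis of fatty acids in brown and beige fat, so that lipid is made and burned in the same tissue. At thermoneutrality, near 30 °C for a mouse, this drive is low.

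Values are RPKM, reads scaled to transcript length and to library size, of 1 transcript a gene. Depth recovered from the spacing of the values was 9.10M to 15.5M reads in the 16 libraries. Some libraries stood apart. At 20 °C the replicates 54, 55 and 56 had reads shifted to the 3′ ends of transcripts: over 117 genes, the median log2 ratio of short 3′ to short 5′ transcript models was 1.05, 1.09 and 1.26, against 0.549 to 0.651 in the other 5 libraries at 20 °C and 0.559 to 0.823 at 30 °C. Summed levels of 18 skeletal muscle markers ran from 41.8 to 2657 RPKM at 20 °C (median 331) and from 39.6 to 14837 RPKM at 30 °C (median 1471), highest in replicates 67, 71 and 69. Summed levels of 16 hepatocyte markers were 9291 RPKM in replicate 54 and 2198 in replicate 52, at most 1059 elsewhere. Rn18s, the 18S ribosomal RNA, was listed at 563 to 12828 RPKM at 20 °C and 445 to 741 at 30 °C. List counts say how many calls were held without replicates 54 to 56 where that was counted, and a named gene whose call ended without them is marked; what these features contribute to any result was not tested unless a value is given.

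**Figure D1:**
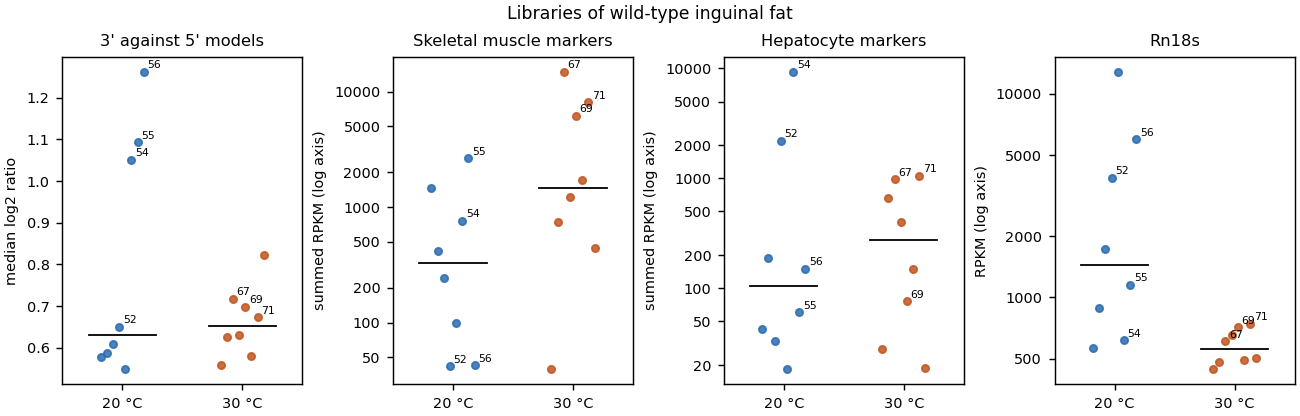
Each point is 1 library of wild-type iWAT at 20 °C or 30 °C; black bars are group medians. The panels show the median log2 ratio of 3′ to 5′ transcript models, the summed RPKM of skeletal muscle and of hepatocyte markers, and the RPKM of Rn18s (the last 3 on log axes); replicates 54, 55 and 56 lie above 1 in the first panel and replicates 67, 69 and 71 between 6188 and 14837 RPKM in the second.

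Across 15897 genes tested with limma on log2(RPKM + 1), 3116 genes (19.6%) differed between 20 °C and 30 °C at an adjusted p under 0.05, which is what rose and fell mean here; 1152 (7.25%) rose and 1964 (12.4%) fell at 20 °C. The median difference of all genes was -0.10 on the log2 scale, and the balance of rises and falls moved with the scaling: 1556 rose and 643 fell after median-ratio scaling, and 1634 rose and 893 fell after quantile normalization. Without replicates 54 to 56, 518 genes rose and 801 fell. A stricter count, added after the data were seen, took the genes that passed in the same direction in all 4 fits: 500 genes (3.15%) rose and 312 (1.96%) fell by it. These are called held genes below. List counts of rises and falls below stand beside the shares of all genes given here. In 680 genes (4.28%) the 2 groups of 8 did not overlap.

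Genes of heat production rose at 20 °C, with Ucp1, Cidea, Elovl3 and Otop1 up by more than 2 on the log2 scale. Of 34 tested genes of the brown thermogenic list, 22 rose, 1 fell and 11 did not pass; 16 of the rises and the fall were held. The list's median difference was 0.58. Without replicates 54 to 56, 16 rose and 2 fell.

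Ucp1, the uncoupling protein itself, was at 23.9 to 281 RPKM at 20 °C (median 97.1) and at 4.66 to 117 RPKM at 30 °C (median 14.9). The groups overlapped: replicate 50 had the lowest level at 20 °C, and at 30 °C replicate 72 (117) and replicate 67 (78.2) stood above the other 6, which were all at 16.3 or below. The log2 difference was 2.37 ± 0.54 (SE; adjusted p = 0.0018) and 2.63 without replicates 54 to 56. Cidea, a lipid droplet protein of brown adipocytes, did not overlap: 91.6 to 226 RPKM at 20 °C (median 176) against 18.5 to 72.9 at 30 °C (median 36.8), a difference of 2.14 ± 0.28 (adjusted p = 3.2e-07). Replicate 50 was again the lowest at 20 °C and replicate 72 the highest at 30 °C.

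Otop1, a proton channel of brown adipocytes, was at 5.49 to 18.2 RPKM (median 8.75) against 0.626 to 2.12 (median 1.42), a difference of 2.14 ± 0.20 (adjusted p = 1.8e-09) with no overlap. Elovl3, a fatty acid elongase of cold-exposed brown fat, rose by 2.28 ± 0.35 (adjusted p = 6.1e-06), from 3.36 ± 2.48 RPKM at 30 °C to 20.7 ± 11.9 at 20 °C (mean ± SD, n = 8). Pank1, which starts coenzyme A synthesis, rose by 1.35 ± 0.17 (adjusted p = 9.5e-08), from 4.23 ± 0.851 to 12.8 ± 4.62 RPKM. Acot11, a thioesterase of brown fat, rose by 1.78 (named, as is Cpt1b, after its value was seen), and Kcnk3, a potassium channel, by 0.96. The respiratory subunit isoforms Cox7a1 and Cox8b, which heart and skeletal muscle use too, rose by 1.90 ± 0.31 and 1.78 ± 0.22 (adjusted p = 1.6e-05 and 9.5e-08). The highest Cox7a1 at 30 °C, 45.1 RPKM, was in replicate 67, the library with the highest muscle marker sum; in the fit with the muscle level as a covariate Cox7a1 rose by 2.17. Cpt1b, the muscle and brown fat form of the carnitine transferase that brings fatty acids into mitochondria, rose by 1.57 ± 0.26 (adjusted p = 1.8e-05).

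Dio2, which makes active thyroid hormone in the tissue, was low: 1.05 to 12.9 RPKM at 20 °C (median 2.92) and 0.417 to 4.74 at 30 °C (median 1.02). Its difference was 1.09 ± 0.32 (adjusted p = 0.013), with overlapping groups, and it did not pass without replicates 52 and 54 (0.96) or without replicates 67, 69 and 71 (0.97). Ppargc1a, Prdm16 and Adrb3, which act upstream of the brown programme, did not pass the test. Ppargc1a, the coactivator that drives mitochondrial biogenesis, was at 2.12 ± 0.827 RPKM at 20 °C and 1.86 ± 0.264 at 30 °C (difference 0.09 ± 0.13, adjusted p = 0.64). At 20 °C it was at 1.18 to 1.48 RPKM in replicates 54 to 56 and at 1.87 to 3.34 in replicates 49 to 53. The libraries at 30 °C had 1.48 to 2.28 RPKM. Prdm16, a brown fat determination factor, differed by -0.10 ± 0.13 and the β3-adrenergic receptor Adrb3 by -0.09 ± 0.20, neither past the threshold. Of the hormones that brown fat can release, Fgf21 had a mean of 0.737 RPKM at 20 °C and 0.153 at 30 °C (adjusted p = 0.12) and Gdf15 0.741 and 0.928 (adjusted p = 0.69). Replicate 54 had 2.62 RPKM of Fgf21, and the other libraries at 20 °C at most 0.96. The 1 gene of the list that fell was Lhx8, a homeobox factor of brown adipocytes, from 2.68 ± 0.44 to 1.62 ± 0.27 RPKM (-0.49, adjusted p = 0.0023; named after its value was seen). Of 13 tested genes of a beige adipocyte list, 1 rose (Slc27a1, 0.36) and 1 fell (Tbx15, -0.49), neither of them held, and the list's median was -0.20.

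**Figure D2:**
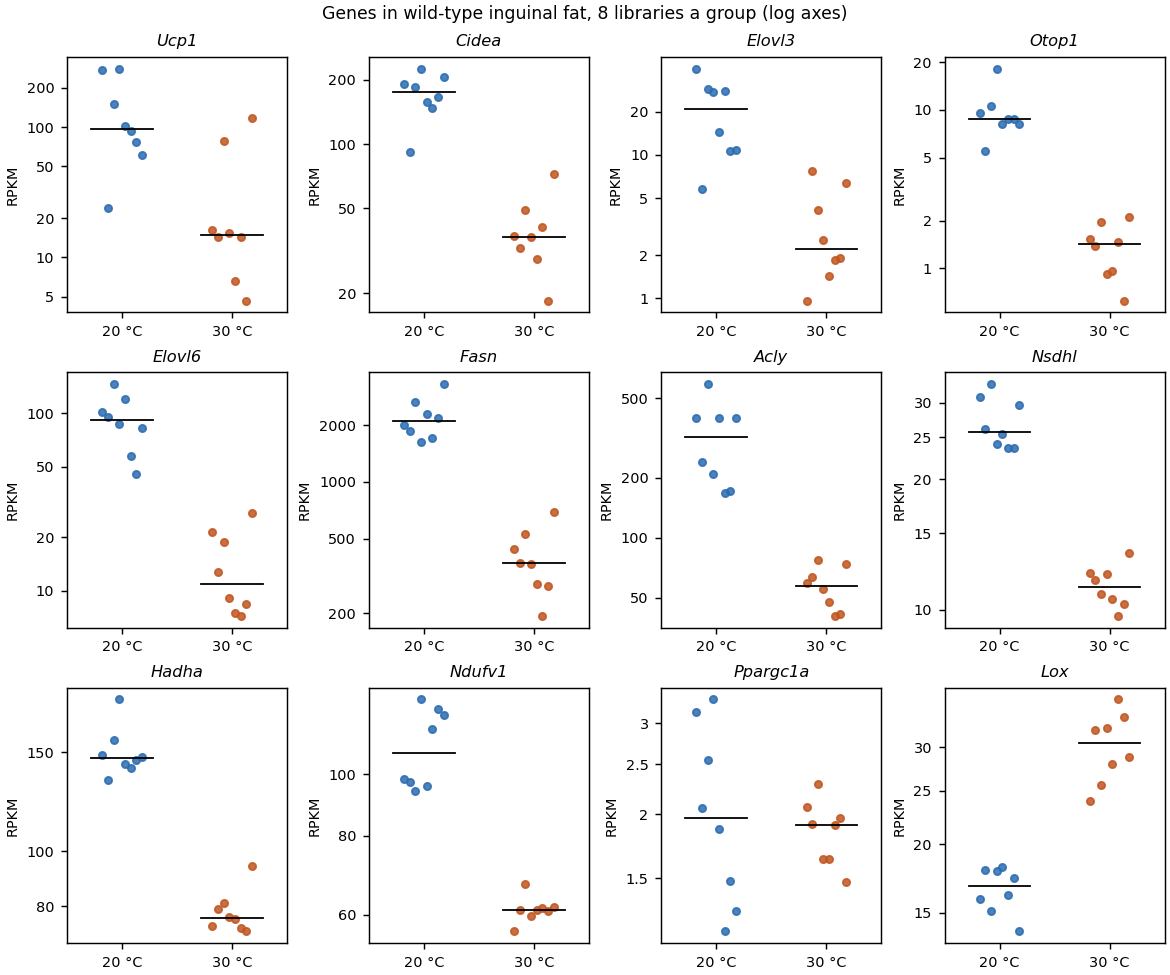
RPKM of 12 genes in each of the 16 libraries of wild-type iWAT, on log axes; points are libraries and bars are group medians. The groups are apart in 9 genes, overlap in Ucp1, Elovl3 and Ppargc1a, and are lower at 20 °C in Lox.

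Of 23 genes of adrenergic and thyroid signalling, 4 rose and 1 fell, where 7.25% of all genes rose and 12.4% fell. Of the 4, Dio2 was also in the thermogenic list and Thrsp in the fatty acid synthesis list. Adra1a, the α1A-adrenergic receptor, rose by 0.78 ± 0.16 (adjusted p = 0.00048), from a median of 2.56 to 4.79 RPKM, and Prkaca, the catalytic subunit of protein kinase A, by 0.80 ± 0.15 (adjusted p = 0.00011). Thrsp, a thyroid hormone responsive gene of lipogenic tissues, went from 580 to 867 RPKM at 30 °C (median 708) to 1072 to 2085 at 20 °C (median 1450), with no overlap, a difference of 1.10 ± 0.25 (adjusted p = 0.0013).

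Fatty acid synthesis held the largest rise among called genes of at least 5 RPKM, that of Elovl6. Of 25 tested genes of that list 17 rose, 1 fell and 7 did not pass, with a median difference of 0.79; 13 rises and the fall were held. The route from glucose to fat could be followed gene by gene. Slc25a1, which exports citrate from mitochondria, rose by 1.78 ± 0.20 (adjusted p = 3e-08). Acly, which splits citrate into acetyl-CoA, was at 167 to 590 RPKM at 20 °C (median 319) and at 40.5 to 77.5 at 30 °C (median 57.3), a difference of 2.37 ± 0.26 (adjusted p = 1.9e-08). Acss2, which makes acetyl-CoA from acetate, rose by 2.02, and Acaca, acetyl-CoA carboxylase, by 1.91 ± 0.22 (adjusted p = 3e-08). None of these 4 overlapped between the groups.

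Fasn, the fatty acid synthase, was at 1618 to 3304 RPKM at 20 °C (median 2095) and 194 to 696 at 30 °C (median 370). The lowest library at 20 °C lay far above the highest at 30 °C, which was replicate 72, and the difference was 2.54 ± 0.30 (adjusted p = 3.4e-08). Elovl6, which extends palmitate to stearate, had the largest rise of the named genes, 2.70 ± 0.30 (adjusted p = 1.9e-08), with 45.2 to 146 RPKM (median 91.2) against 7.2 to 27.3 (median 10.9). Scd1, the stearoyl-CoA desaturase, was among the most abundant transcripts at 11620 ± 998 RPKM against 5180 ± 717 (1.17 ± 0.15, adjusted p = 2.5e-07). Scd2 rose by 0.61, which did not pass without replicates 54 to 56 (adjusted p = 0.11). The NADPH that synthesis uses comes in part from Me1, malic enzyme, up by 2.11. Tkt, transketolase, of the branch of the pentose phosphate pathway that makes no NADPH, rose by 1.48 ± 0.17 (adjusted p = 2.8e-08). Elovl1, which elongates very long chains, was the 1 gene of the list that fell, by 0.27 (named after its value was seen).

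The transcripts of the factors that drive lipogenesis did not pass the test. Srebf1 was at 95.8 ± 17.9 RPKM at 20 °C and 82.8 ± 9.33 at 30 °C (0.20 ± 0.10, adjusted p = 0.15), and Mlxipl, which encodes ChREBP, at 37 ± 5.2 and 32.7 ± 4.81 (0.17 ± 0.12, adjusted p = 0.29). Each of these is the level of 1 transcript model, the most abundant of the gene, so other isoforms were not measured apart. The levels do not show activity of the proteins. Of 14 genes of lipogenic regulation 1 rose and 1 fell, where 7.25% of all genes rose and 12.4% fell. Insig1, a sterol sensor of the SREBP pathway, rose by 1.11 ± 0.19 (adjusted p = 3.9e-05). Rxra, a partner receptor, fell by 0.21, which did not pass after median-ratio scaling (-0.12, adjusted p = 0.33). Aspg, an asparaginase in no list, was among the 12 largest rises (2.15 ± 0.25, adjusted p = 3.4e-08), from 3.25 ± 1.62 to 18.2 ± 7.64 RPKM.

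The sequences before 4 genes that rose are shown here because lipogenic and sterol genes are known to carry CCAAT boxes, the site of the factor NF-Y, close to SREBP sites. They are the 250 bases before the gene start from RefSeq (build GRCm38.p6), 5′ to 3′ on the gene's own strand, with CCAAT or its reverse complement in capitals.
Fasn, chr11:120824548-120824797, minus strand: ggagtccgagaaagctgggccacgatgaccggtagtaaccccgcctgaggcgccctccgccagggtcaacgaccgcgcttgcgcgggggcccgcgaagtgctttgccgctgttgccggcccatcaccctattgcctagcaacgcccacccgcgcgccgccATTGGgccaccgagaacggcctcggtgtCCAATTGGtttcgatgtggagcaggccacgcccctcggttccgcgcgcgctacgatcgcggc
Acss2, chr2:155517793-155518042, plus strand: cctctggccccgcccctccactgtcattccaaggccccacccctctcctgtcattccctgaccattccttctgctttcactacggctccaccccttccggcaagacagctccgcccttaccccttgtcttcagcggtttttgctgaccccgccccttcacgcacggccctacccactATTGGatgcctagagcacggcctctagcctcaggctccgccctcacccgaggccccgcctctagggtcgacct
Nsdhl, chrX:72918271-72918520, plus strand: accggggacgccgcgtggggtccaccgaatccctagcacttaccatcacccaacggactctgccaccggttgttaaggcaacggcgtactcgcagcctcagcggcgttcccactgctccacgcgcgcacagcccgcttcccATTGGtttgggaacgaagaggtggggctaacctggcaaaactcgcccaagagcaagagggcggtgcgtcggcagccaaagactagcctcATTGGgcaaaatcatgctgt
Cox7a1, chr7:30183921-30184170, plus strand: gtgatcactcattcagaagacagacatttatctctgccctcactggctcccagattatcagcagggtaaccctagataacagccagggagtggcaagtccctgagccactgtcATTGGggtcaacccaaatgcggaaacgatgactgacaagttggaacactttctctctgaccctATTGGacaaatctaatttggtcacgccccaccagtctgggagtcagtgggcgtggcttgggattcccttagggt
These 4 were picked among windows that hold the box. In this 250-base window, on either strand, CCAAT was present in 14 of 15 cholesterol genes that matched the table (93.3%). It was in 12 of 22 fatty acid synthesis genes (54.5%), 10 of 16 TCA cycle genes (62.5%) and 11 of 22 fatty acid oxidation genes (50%). Oxidative phosphorylation had it in 23 of 56 genes (41.1%) and the matrix list in 11 of 25 (44%). Of thermogenic genes 14 of 28 (50%) and of glycolysis genes 12 of 28 (42.9%) held it, beside 37.5% of all 27025 genes of the table. Of 5 other motifs searched on both strands, the E-box CACGTG was in 2 of the 22 fatty acid synthesis genes and in 6.86% of all genes, and TCACNCCAC, a sterol regulatory element, in none of the 22 and in 1.22% of all genes. The sterol element was in 1 of 15 genes of cholesterol synthesis (6.67%), 2 of 22 genes of fatty acid oxidation (9.09%) and 2 of 28 glycolysis genes (7.14%). The E-box was in 3 of 15 cholesterol genes (20%), and in 5 of 28 genes (17.9%) of both the thermogenic and the glycolysis list. In the genes of oxidative phosphorylation CCGGAAG, a GABP site, was in 10 of 56 (17.9%, beside 7.83% of all genes). The NRF1 site was in 3 of 56 (5.36%, beside 0.877%), and TNAAGGTCA, an ERR response element, in 1 of 56 (1.79%, beside 1.3%). Several of these shares rest on few genes. A match is a run of letters, not a bound site.

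Sterol genes rose too. Of 21 tested genes of cholesterol synthesis and uptake 14 rose and none fell, 11 of the rises were held, and the median was 0.45. Nsdhl, which removes methyl groups in the late pathway, was at 23.6 to 33.2 RPKM (median 25.8) against 9.67 to 13.6 (median 11.3), a difference of 1.18 ± 0.15 (adjusted p = 3.2e-07). Acat2, which makes acetoacetyl-CoA, rose by 1.05 and Pmvk, phosphomevalonate kinase, by 0.86. Hmgcs1, of an early step and named after its value was seen, did not pass: it had 30.7 ± 5.52 RPKM at 20 °C and 37.7 ± 9.67 at 30 °C (-0.28 ± 0.14, adjusted p = 0.16).

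Sugar use and glyceride assembly rose in part. Of 31 genes of glucose uptake and glycolysis 16 rose and 2 fell (median 0.40; 11 rises held). Eno1, enolase, rose by 1.17 ± 0.13 (adjusted p = 2.1e-08), from 44.8 ± 7.87 to 101 ± 10.7 RPKM. The pyruvate dehydrogenase subunits Pdhb and Pdha1, which turn pyruvate into acetyl-CoA, rose by 1.16 and 0.93, and Pfkl, phosphofructokinase, by 0.90. Of genes named after their values were seen, Slc2a5, a fructose transporter, rose by 1.85 from a low level, 0.781 ± 0.479 to 5.72 ± 2.55 RPKM (adjusted p = 6.8e-06). Of the glucose transporters, Slc2a4, the insulin-responsive one, differed by 0.31 ± 0.13 (adjusted p = 0.09), and Slc2a1 fell by 0.28 (adjusted p = 0.0076). Eno3, the muscle enolase, named on the same ground, differed by -1.46 ± 0.60 (adjusted p = 0.078) and ranged from 7.81 to 73.7 RPKM at 20 °C and 11.4 to 351 at 30 °C.

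Of 17 genes of triglyceride synthesis 8 rose and 2 fell (median 0.38; 6 rises and 1 fall held). Agpat2, the adipocyte acyltransferase, rose by 1.15 ± 0.16 (adjusted p = 1.7e-06), Dgat2, the last step, by 1.02 ± 0.20 (adjusted p = 0.00028) and Gpd1, which supplies glycerol 3-phosphate, by 0.95 ± 0.14 (adjusted p = 1.4e-06). Agpat9 and Lpin3, the 2 that fell, differed by -0.52 and -0.49; Lpin3 did not pass without replicates 54 to 56 (-0.47, adjusted p = 0.072), nor Agpat9 without replicates 52 and 54 (-0.45, adjusted p = 0.064). Of 23 genes of lipid uptake and droplets 8 rose and 1 fell (4 rises held). Fabp5, a fatty acid binding protein, rose by 1.12, and the droplet proteins Plin5 and Plin2 by 1.03 and 0.71, while Plin4, the perilipin of white adipocytes, fell by 0.47 (adjusted p = 0.032), but did not pass after median-ratio scaling (-0.37, adjusted p = 0.13). None of 4 genes of lipolysis and of uptake from blood passed. The lipases Pnpla2 and Lipe differed by 0.07 ± 0.11 and 0.08 ± 0.10, Lpl, lipoprotein lipase, by 0.23 ± 0.17, and its endothelial carrier Gpihbp1 by -0.04 ± 0.17, with adjusted p of 0.69, 0.59, 0.33 and 0.87. Of 13 lipolysis genes 1 rose and 1 fell, where 7.25% of all genes rose and 12.4% fell.

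Most genes of the TCA cycle, fatty acid oxidation and nuclear oxidative phosphorylation rose. In the TCA cycle 18 of 19 genes rose, 17 of them held, with a median of 0.68. In fatty acid oxidation 23 of 28 rose, 20 held, with a median of 0.74, and none fell. Of 68 nuclear genes of oxidative phosphorylation 63 rose, 47 held, with a median of 0.61, and none fell. Against these, 7.25% of all genes rose and 3.15% were held rises. Without replicates 54 to 56 17, 20 and 47 rose, 1 gene of oxidative phosphorylation fell, and the medians were 0.54, 0.57 and 0.44. In oxidative phosphorylation replicates 56, 55 and 54 had the highest list levels at 20 °C (0.67, 0.58 and 0.45, as mean log2 levels centred on the 16 libraries), and 0.24 was the highest of the other 5.

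Sdha, of succinate dehydrogenase, rose by 0.74 ± 0.09 (adjusted p = 9.7e-08) and Fh1, fumarase, by 0.68 ± 0.09 (adjusted p = 3.5e-07). Idh2 was the 1 gene of the list that did not pass (0.08 ± 0.09). Hadha, of the trifunctional protein of β-oxidation, was at 134 to 186 RPKM against 72.2 to 94, with no overlap (0.93 ± 0.10, adjusted p = 1.3e-08). Acadvl, the very long chain dehydrogenase, rose by 1.04 and Acaa2, the last step of each cycle, by 1.12. Acaa1b, a peroxisomal thiolase, rose by 1.79 ± 0.23 (adjusted p = 2.1e-07). Cpt1a, the liver form of the carnitine transferase, differed by -0.30 ± 0.13 (adjusted p = 0.088), while Cpt1b rose as given above.

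Among the respiratory chain genes Ndufv1, of complex I, was at 94.1 to 131 RPKM against 56.5 to 67.1 (0.83 ± 0.10, adjusted p = 3.3e-08). Uqcrc1 and Uqcrq, of complex III, rose by 0.80 and 0.98. Cox6a2, a subunit isoform of heart and muscle, did not pass and varied widely, from 0.767 to 13.9 RPKM at 20 °C and 0.85 to 97.6 at 30 °C. Of 26 names of the mitochondrial genome 7 were tested and 4 rose, none of them held: COX1 rose by 0.58 ± 0.14 (adjusted p = 0.0024) and ND4L by 0.66 ± 0.17 (adjusted p = 0.0045), but quantile normalization left 0.07 and 0.14, and without replicates 54 to 56 neither passed (0.46 and 0.42). Of 17 regulators of mitochondrial biogenesis 3 rose and 1 fell; Immt, of the inner membrane, was held (0.50 ± 0.09, adjusted p = 4.8e-05), and Esrra, an oestrogen-related receptor, rose by 0.61 but did not pass without replicates 54 to 56 (0.40). In the breakdown of branched-chain amino acids 8 of 21 genes rose, among them Bckdha, of the branched-chain dehydrogenase, by 0.64 ± 0.09 (adjusted p = 1.8e-06). Of the 8, 4 were held, and without replicates 54 to 56 the median of the list went from 0.26 to 0.10.

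**Figure D3:**
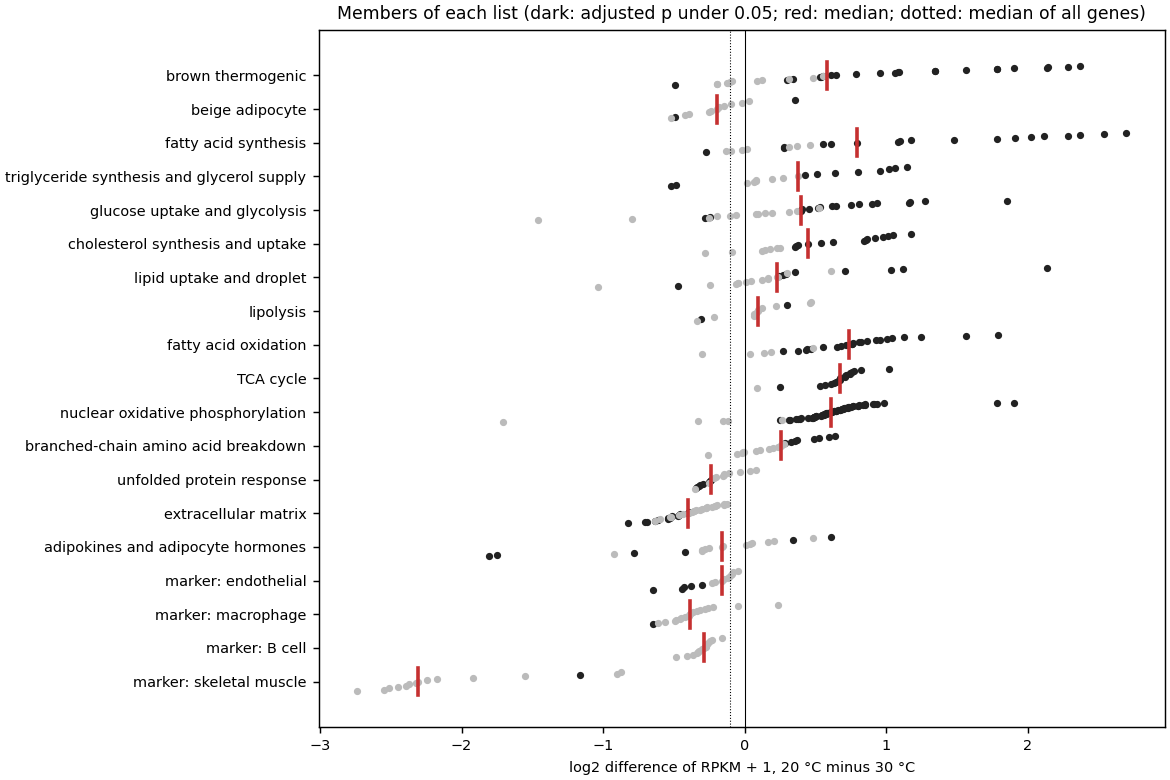
Log2 difference (20 °C minus 30 °C, of RPKM + 1) of every tested member of 19 gene lists; dark points passed an adjusted p of 0.05, red bars are list medians and the dotted line is the median of all genes (-0.10). The medians of the 3 large mitochondrial lists are 0.74, 0.68 and 0.61 with few members at or below 0, fatty acid synthesis spreads up to 2.70, and muscle markers lie farthest left with 1 dark point.

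The libraries of 1 group were not alike. Replicate 50 had the lowest thermogenic level of the 20 °C group: the mean of its list members, centred on the 16 libraries, was -0.09, the 1 value below 0 among the 8, while replicate 52 was highest at 0.88. In fatty acid synthesis replicate 50 was at 0.37, inside the range of the group (0.33 to 0.72). At 30 °C replicates 67 and 72 had thermogenic levels of -0.04 and -0.07, and the other 6 ran from -0.66 to -0.28. Replicate 72 was also the highest of its group in fatty acid synthesis (-0.19, the others at most -0.38). So the thermogenic lists met at the edges of the groups, with replicates 67 and 72 above replicate 50, while in fatty acid synthesis, fatty acid oxidation and the TCA cycle all 8 libraries at 20 °C lay above all 8 at 30 °C.

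**Figure D4:**
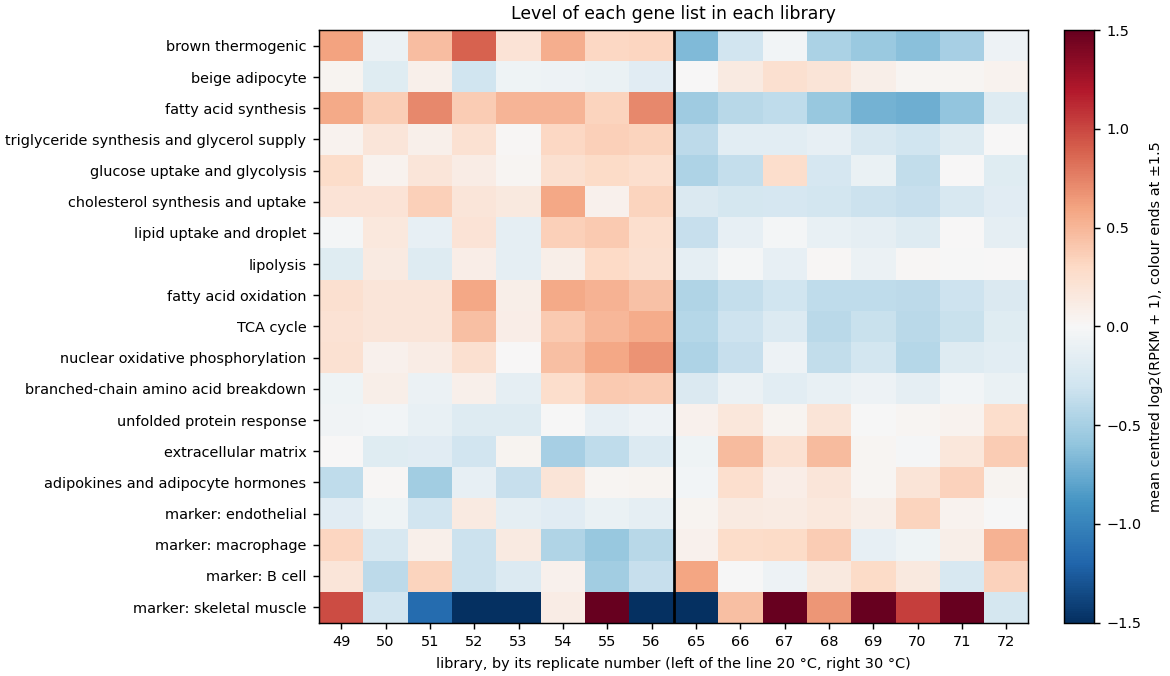
Mean level of 19 gene lists in each library, as log2(RPKM + 1) centred per gene on the mean of the 16 libraries; columns are libraries by replicate number, 20 °C left and 30 °C right of the line, and colours end at ±1.5. Fatty acid synthesis and TCA cycle are above 0 in all 8 libraries at 20 °C and below 0 in all 8 at 30 °C, and the skeletal muscle row varies inside both groups.

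Adipocyte secreted factors, matrix genes and vessel genes were among those that fell at 20 °C. In bulk tissue, fewer cells of a type and less RNA per cell cannot be told apart. Of 37 extracellular matrix genes 14 fell and none rose (median -0.40), and 5 of the falls were held. Of all genes 12.4% fell, 1.96% were held falls, and the median was -0.10. Lox, lysyl oxidase, which crosslinks collagen, was at 13.9 to 18.2 RPKM at 20 °C (median 16.8) and 24 to 36.7 at 30 °C (median 30.6), a difference of -0.82 ± 0.13 (adjusted p = 8.8e-06). Its substrate elastin, Eln, fell by 0.53 ± 0.09 (adjusted p = 5.3e-05), Thbs2, a matricellular thrombospondin, by 0.70, Adamts1, a matrix protease, by 0.69, and Col4a1, basement membrane collagen, by 0.63 ± 0.14 (adjusted p = 0.0017). After median-ratio scaling 6 matrix genes fell. Chrdl1, a BMP antagonist, fell by 1.11 and Cmklr1, the chemerin receptor, by 1.00; both were held and named after their values were seen.

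Nnat, neuronatin, a small membrane protein of adipocytes, was at 47.2 to 427 RPKM at 20 °C (median 301) and 523 to 919 at 30 °C (median 709), with no overlap (-1.80 ± 0.35, adjusted p = 0.00026). The imprinted Peg3 fell by 1.495 ± 0.22 (adjusted p = 2.6e-06), from 22.9 ± 6.53 to 7.44 ± 2.14 RPKM, and Agt, angiotensinogen, by 0.78 ± 0.23 (adjusted p = 0.015), which did not pass without replicates 67, 69 and 71 (-0.61, adjusted p = 0.11). Agt at 20 °C was highest in replicate 54, at 33.4 RPKM, the library with the most hepatocyte RNA. Lep, leptin, was at 65.6 ± 32.2 and 116 ± 44.3 RPKM and did not pass (-0.93 ± 0.41, adjusted p = 0.097). Adipoq, adiponectin, had 1696 ± 321 and 2030 ± 163 RPKM (adjusted p = 0.12). Vegfa, the vessel growth factor, fell by 0.42 but did not pass after median-ratio scaling (-0.33, adjusted p = 0.11). Rbp4, the retinol carrier, rose by 0.61, but by 0.30 without replicates 54 to 56, where it did not pass. Mest, Sfrp5 and Npr3, genes linked to fat expansion, differed by -0.63, -0.49 and -0.34 and did not pass.

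Of 15 endothelial markers 5 fell and none rose, and 3 of the falls were held. Held were Tek, the angiopoietin receptor, by 0.43 ± 0.09 (adjusted p = 0.00055), Pecam1 by 0.44 ± 0.10 (adjusted p = 0.00096) and Emcn by 0.38 ± 0.08 (adjusted p = 0.00058). The counts of falls in this paragraph stand beside 12.4% of all genes that fell and 1.96% that were held falls. The summed endothelial level was 332 to 444 RPKM at 20 °C and 424 to 538 at 30 °C. Progenitor markers Dcn and Pdgfra fell by 0.47 and 0.44, not past the threshold without replicates 54 to 56. The positional gene Hoxa10 fell by 0.49 ± 0.10 (adjusted p = 0.00052). In the unfolded protein response 8 of 19 genes fell, and 2 after median-ratio scaling; 1 of the falls was held (Pdia3, a disulfide isomerase, by 0.33); Hspa5, the chaperone BiP, fell by 0.24, which was not held (adjusted p = 0.19 after median-ratio scaling and 0.051 without replicates 54 to 56). Of 20 proliferation genes 1 fell, Pcna, the replication clamp, by 0.42, and none did without replicates 54 to 56 (Pcna -0.34, adjusted p = 0.056). Of 17 tested clock genes 1 rose, 1 fell and 15 did not pass, with a median of -0.005, where 19.6% of all genes passed. Dbp, an output gene, rose by 0.80 ± 0.17 (adjusted p = 0.00058). Arntl, the core activator BMAL1, fell by 0.46 (adjusted p = 0.024) but was not held (-0.35, adjusted p = 0.18 without replicates 54 to 56). The labels give no time of sampling. Aldh1a7, an aldehyde dehydrogenase, rose by 1.34 ± 0.23 (adjusted p = 3e-05).

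Skeletal muscle genes made up 9 of the 12 largest falls, and their levels followed the muscle marker sums. Trim63, a muscle ubiquitin ligase, had the largest fall of the genes with at least 5 RPKM, -2.20 ± 0.76 (adjusted p = 0.036), with 0 to 12.8 RPKM at 20 °C and 0 to 91.4 at 30 °C. Tpm2, a tropomyosin, Trdn, of the calcium release complex, and Ryr1, the calcium release channel, fell by 1.78, 1.61 and 1.42. None was held, and without replicates 67, 69 and 71 the 4 differences were -0.70, -0.57, -0.57 and -0.43 with none past the threshold. Of the 15 muscle markers tested 1 fell, Des, desmin, which was not held, and the median was -2.31. The summed muscle level was 6188 to 14837 RPKM in replicates 67, 69 and 71, and at most 2657 RPKM in every library at 20 °C.

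Lymphocyte genes were present in every library. Cd3e, of T cells, was at 10.6 to 23.4 RPKM at 20 °C and 15 to 30 at 30 °C (adjusted p = 0.69). None of 15 B cell and 14 T cell markers passed; their summed levels were 443 to 800 and 187 to 372 RPKM at 20 °C and 528 to 956 and 239 to 463 at 30 °C. Ccl21a, a chemokine of lymph node stroma, was listed at 0 in all 16 libraries. Of 6 tested markers of lymph node stroma 1 rose, Ltbr (0.22, not held), a receptor that other cells carry too. Of 20 macrophage markers 1 fell, where 12.4% of all genes did. It was Lyve1, which lymphatic endothelium shares and which was not held (-0.48, adjusted p = 0.16 without replicates 54 to 56). None of 26 interferon genes, 9 epithelial, 7 mast cell, 5 erythroid, 11 Schwann cell or 16 hepatocyte markers passed.

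In libraries labelled Ucp1-KO, Ucp1 reads were counted at 306 ± 128 RPKM at 20 °C and 83.9 ± 32.1 at 30 °C in iWAT, so the level of Ucp1 in iWAT does not check that label. The test of the difference between the genotypes' responses to temperature passed in 2110 of 15897 genes (13.3%), and in 287 (1.81%) in all 4 fits described above. That count was unsteady: 1768 responses were higher and 342 lower in wild-type as fitted, 222 higher and 1175 lower after median-ratio scaling, and 507 passed without replicates 54 to 56. The median interaction of all genes was 0.16 as fitted. Ucp1 (0.49 ± 0.77, adjusted p = 0.70), Cidea (0.32 ± 0.40, adjusted p = 0.61), Elovl6 (0.24 ± 0.42, adjusted p = 0.74) and Fasn (0.88 ± 0.42, adjusted p = 0.15) did not pass, which does not show that the genotypes respond alike.

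Ppargc1a did not pass in wild-type iWAT and went from 2.68 to 7.83 RPKM in labelled Ucp1-KO iWAT. The difference between the responses was -1.19 ± 0.18 (adjusted p = 2.6e-05), and -0.96 without replicates 54 to 56 (adjusted p = 0.00094), where wild-type levels were lowest at 20 °C. Fgf21 had means below 1 RPKM in both wild-type groups and rose from 0.559 to 5.55 RPKM in labelled Ucp1-KO mice, a difference of -1.36 ± 0.32 (adjusted p = 0.0053). Fitted on log2(RPKM + 0.1), this interaction of Fgf21 was -1.61 and did not pass (adjusted p = 0.06). Larger responses in the labelled Ucp1-KO libraries were also found for Acot11 (-1.89 ± 0.36), Acot2, a mitochondrial thioesterase (-1.55 ± 0.19), the desaturase Scd3 (-2.37 ± 0.23), Zfp652 (-1.82 ± 0.23) and Abi3 (-1.79 ± 0.24). All of these were held, and with transcripts summed per gene the interaction of Zfp652 was -1.09 (adjusted p = 3e-05). In wild-type iWAT Zfp652 and Abi3 were both highest in replicate 49 at 20 °C (17.95 and 27.61 RPKM) and in replicate 67 at 30 °C (10.81 and 16.29). Whether they are separate signals was not tested. The response of Rbp4 was higher in wild-type by 1.11 ± 0.25 (adjusted p = 0.0033), and by 0.80 without replicates 54 to 56 (adjusted p = 0.039). Its means were 307 and 190 RPKM in wild-type at 20 °C and 30 °C and 158 and 224 in labelled Ucp1-KO. In wild-type at 20 °C replicate 54, with the most hepatocyte RNA, had 605 RPKM, and the other libraries 187 to 359. Atp5g3, a subunit of ATP synthase, rose by 0.50 in wild-type (0.27, adjusted p = 0.096, without replicates 54 to 56) and differed by -0.42 in labelled Ucp1-KO (0.92 ± 0.15, adjusted p = 0.00014). Srebf1 and Dgat2 also passed (0.63 and 0.84) but were not held. Sdf4 and P4hb, proteins of the secretory pathway, differed by 0.47 and 0.65, with falls of 0.59 and 0.78 in labelled Ucp1-KO. These 2 interactions were 0.22 (adjusted p = 0.045) and 0.40 (adjusted p = 0.0039) after median-ratio scaling. After quantile normalization they were 0.27 and 0.42.

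Of the brown thermogenic list, 9 of 34 genes had a smaller response in wild-type than in labelled Ucp1-KO iWAT, 7 held, and none a larger one. Of all 15897 genes 342 had a lower response in wild-type as fitted, and 1.81% were held in either direction. The median difference of the thermogenic list was 0.58 in wild-type and 1.42 in labelled Ucp1-KO, where the medians of all genes were -0.10 and -0.25.

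In brown fat the thermogenic genes did not rise as they did in iWAT. The depots' responses to temperature differed in 2738 of 16310 genes (16.8%), 1648 of them (10.1%) in all 4 fits, and the median interaction of all genes was 0.03. In wild-type iBAT Ucp1 was at 3793 ± 751 RPKM at 20 °C and 8227 ± 577 at 30 °C, so its difference was -1.14 ± 0.40 where in iWAT it was 2.37; the interaction was 3.51 ± 0.56 (adjusted p = 1.5e-06). In iWAT at 20 °C Ucp1 stayed far below either level in iBAT. Other thermogenic genes that rose in iWAT and had a smaller or opposite difference in iBAT were Otop1 (interaction 1.86 ± 0.24), Pank1 (1.81 ± 0.20), Cidea (1.81 ± 0.32), Dio2 (1.68 ± 0.37), Adra1a (1.51 ± 0.19), Cox7a1 (1.40 ± 0.35), Elovl3 (1.40 ± 0.46) and Cox8b (1.27 ± 0.28). Ppargc1a fell from 67.4 to 13.9 RPKM in iBAT and did not pass in iWAT (interaction 2.35 ± 0.28, adjusted p = 2.2e-10). In all, 24 of 34 thermogenic genes had a higher response in iWAT, 23 of them held, and none a lower one.

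Part of the mitochondrial genes also had a higher response in iWAT. In iBAT itself the median of the thermogenic list was -0.21 (6 rose and 14 fell), while the medians of fatty acid oxidation, the TCA cycle and oxidative phosphorylation were 0.25, 0.22 and 0.19. Higher responses in iWAT were found in 13 of 19 TCA cycle genes, 17 of 28 fatty acid oxidation genes and 28 of 68 genes of oxidative phosphorylation. Of these 6, 9 and 11 were held, and a lower response was found in 1, none and none. Of all 16310 genes 1911 had a higher and 827 a lower response in iWAT, and 10.1% were held in either direction. Ndufv1 was at 468 and 450 RPKM in iBAT at 20 °C and 30 °C (interaction 0.78 ± 0.14) and Acadvl at 941 and 790 (0.79 ± 0.15). The droplet proteins Plin2 and Plin5 differed by 1.46 ± 0.20 and 1.26 ± 0.23; Plin2 fell in iBAT, from 622 to 361 RPKM, and rose in iWAT.

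For 2 core genes of fatty acid synthesis the depots' responses did not differ past the threshold. Fasn rose by 3.00 ± 0.30 in iBAT and 2.54 in iWAT (interaction -0.47 ± 0.43, adjusted p = 0.52), and Acly by 2.96 ± 0.27 and 2.37 (-0.60 ± 0.38, adjusted p = 0.31). Within the pathway Elovl6 and Scd1 had a higher response in iWAT (1.55 ± 0.34 and 0.88 ± 0.25), and Scd2 and Srebf1 a lower one (-1.82 ± 0.30 and -0.53 ± 0.17). Of the cholesterol list 6 genes had a lower response in iWAT and 1 a higher one. Among the matrix genes Lox fell in iWAT and was near 0 in iBAT (-0.77 ± 0.21), whereas Adamts1 fell by 2.14 in iBAT (1.45 ± 0.19). Arntl fell by 1.77 in iBAT and by 0.46 in iWAT (1.31 ± 0.20). Among the genes with the smallest p in this comparison, several changed in iBAT and did not pass in iWAT: Cntfr, a cytokine receptor subunit, fell from 67.9 to 7.53 RPKM in iBAT and was at 4.82 and 4.94 in iWAT at 20 °C and 30 °C, and Cars2, a mitochondrial tRNA synthetase, and Slc16a1, a lactate transporter, fell there by 2.83 and 1.75. Herpud1, Ano1 and the intermediate filament gene Vim rose in iBAT by 1.07, 1.60 and 1.09, with interactions of -0.99, -1.70 and -1.37.

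**Figure D5:**
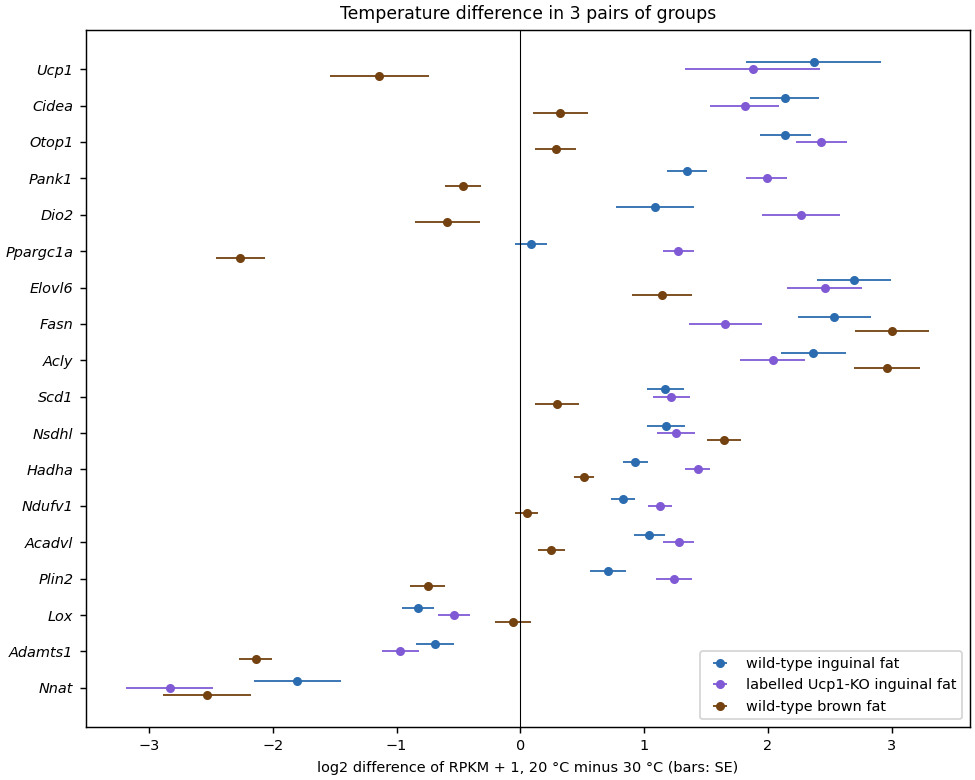
Log2 difference between 20 °C and 30 °C (RPKM + 1) of 18 genes in wild-type iWAT, in iWAT labelled Ucp1-KO and in wild-type iBAT; points are limma estimates from 8 against 8 libraries and bars are SE. Fasn and Acly rise in all 3, Ucp1 and Plin2 are above 0 in both iWAT genotypes and below 0 in iBAT, and Ppargc1a is above 0 in labelled Ucp1-KO iWAT, near 0 in wild-type iWAT and below 0 in iBAT.

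In wild-type iWAT on high fat diet at 30 °C, Ucp1 had a mean of 15.3 ± 11.6 RPKM, Fasn of 223 ± 211, Elovl6 of 6.49 ± 7.24 and Lep of 587 ± 349 (n = 8), beside the 2 control diet groups given above; this group was not compared by test.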

How the data were processed

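mRNA of 1 animal a library was sequenced with a stranded kit; the study notes 8 animals a group and took both depots from each, but the labels tie no iBAT library to an iWAT library, so the fits treat libraries as independent. The authors deposited RPKM per transcript (168326 transcripts, 29072 symbols), made, per the submitters' processing notes, with CASAVA and bcl2fastq among their tools; for aligner, annotation and build nothing is stated: not given in the sources used here. Each gene is its most abundant transcript with an Entrez ID. From the deposited RPKM, log2(RPKM + 1) was fitted with limma 3.58.1 in R 4.3.3 (trend, 6 group means of all 48 iWAT libraries; 12 group means of 96 libraries for the comparison with iBAT), keeping genes of at least 0.5 RPKM in 8 libraries, with Benjamini-Hochberg adjustment. A fold on this scale understates changes of low genes. Steps between low values gave the depth: 95.1 to 95.5% of low values were whole reads within 0.05, and no count test was run. Named genes were Ucp1, the 12 largest rises and falls at 5 RPKM or more, the 4 smallest p of each list, 6 each way in each interaction and a short fixed list; others are marked where named. Members and lists were chosen with earlier results of these data known. The fit was run on simulated data with noise independent between genes and libraries. Those data held none of the library features described above, so the run gives no check against them. Results of a few genes that the rule names are not reported here.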

Additional observations from a re-analysis of the deposited data

Results flagged for a closer look

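In groups of 8, the highest or lowest library was apart from the rest by more than Dixon's 95% critical value in these cases; chance gives about 1 in 20 groups, and 14 of 260 groups examined were so marked. At 20 °C replicate 50 stood apart in Cidea (91.6 RPKM). At 20 °C replicate 52 stood apart in Sdf4 (102 RPKM). At 20 °C replicate 54 stood apart in Agt (33.4 RPKM). At 30 °C replicate 65 stood apart in Plin4 (623 RPKM). At 30 °C replicate 67 stood apart in Zfp652 (10.8 RPKM), Abi3 (16.3 RPKM). At 30 °C replicate 70 stood apart in Gpihbp1 (158 RPKM). At 30 °C replicate 72 stood apart in Dio2 (4.74 RPKM), Insig1 (63.9 RPKM), Agpat2 (445 RPKM), Pfkl (32.1 RPKM), Hmgcs1 (61.1 RPKM), Hadha (94 RPKM), Slc16a1 (21.4 RPKM).

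The responses of wild-type iWAT and iBAT to temperature differed, by the interaction test in limma at an adjusted p under 0.05, in genes named above; the interactions, iWAT minus iBAT on the log2 scale, were Ucp1 3.51, Cidea 1.81, Cox7a1 1.40, Cox8b 1.27, Otop1 1.86, Pank1 1.81, Dio2 1.68, Elovl3 1.40, Ppargc1a 2.35, Adra1a 1.51, Elovl6 1.55, Scd1 0.88, Plin2 1.46, Plin5 1.26, Acadvl 0.79, Ndufv1 0.78, Lox -0.77, Adamts1 1.45, Arntl 1.31, Scd2 -1.82, Srebf1 -0.53, Cntfr 2.99, Cars2 2.94, Slc16a1 2.08, Vim -1.37, Herpud1 -0.99, Ano1 -1.70. The responses of wild-type and labelled Ucp1-KO iWAT differed by the same test, wild-type minus labelled Ucp1-KO, by Ppargc1a -1.19, Fgf21 -1.36, Acot11 -1.89, Acot2 -1.55, Scd3 -2.37, Zfp652 -1.82, Abi3 -1.79, Rbp4 1.11, Srebf1 0.63, Dgat2 0.84, Atp5g3 0.92, Sdf4 0.47, P4hb 0.65.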

How the results depend on the processing

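Beside 3116 genes called between 20 °C and 30 °C, 1899 were called without replicates 52 and 54 and 1319 without replicates 54 to 56, where 518 rose and 801 fell. Falls numbered 1049 without replicates 52 and 54, 643 after median-ratio scaling, 893 after quantile normalization and 1192 with muscle level as a covariate. Leaving out 1 library at a time gave 2304 to 3474 calls. The genotype comparison gave 3614 genes with array weights, 507 without replicates 54 to 56, 1397 after median-ratio scaling and 870 after quantile normalization, beside 2110; the comparison with iBAT stayed between 2414 and 3763, beside 2738. The wild-type difference of Zfp652, 0.52, went to -0.09 when transcripts were summed; the cause was not tested. Leaving out 1 library ended the wild-type calls of Slc27a1, Scd2, Plin4, Vegfa, Dcn, Pdgfra, Arntl, Trim63, Tpm2, Trdn, Ryr1, Des, Acot2, Vim, Rxra and Ltbr in at least 1 case each. The settings that leave out sets of libraries, and the muscle covariate, were chosen after seeing the data. No paired analysis was possible because the titles number the libraries 1 to 96 with no number shared between groups.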
